A study of Mus musculus with 2 samples.

Results

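R-spondins are secreted proteins that amplify WNT signaling. They bind the receptors LGR4, LGR5 and LGR6 together with the transmembrane E3 ubiquitin ligases ZNRF3 and RNF43, and the complex removes the ligases from the cell surface. Without R-spondin, the ligases mark Frizzled and LRP co-receptors for degradation and so lower the response to WNT ligands. *Axin2*, which encodes a scaffold of the β-catenin destruction complex, is induced by β-catenin and TCF/LEF factors and is widely used as a readout of the pathway. In skin, WNT signaling is required for hair follicle formation. In cartilage it restrains early chondrogenesis and acts on hypertrophic maturation.

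The 10 genes described here were the R-spondins *Rspo1*, *Rspo2*, *Rspo3* and *Rspo4*, the receptors *Lgr4*, *Lgr5* and *Lgr6*, the E3 ligases *Rnf43* and *Znrf3*, and the WNT target *Axin2*. They were found by gene symbol, and all 10 were present among the 24421 rows of the count table. The set was chosen from a readout, since earlier results of the same 2 libraries, among them the *Lgr5* counts, were known when it was drawn up. All differences below are therefore descriptions.

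RNA-Seq compared primary chondrocytes from rib cartilage with primary dermal fibroblasts from dorsal skin, to find genes that differ in expression between the cell types. The cells came from newborn mice, for which no genetic change, treatment or pooling of animals is given in the sources used here. Chondrocytes were released by a long collagenase digestion after soft tissue had been digested away, and were used up to the second passage. Dermal fibroblasts were released by collagenase in the cold, and the methods describe removal of the dermis before the skin was dispersed. Each cell type was represented by 1 library, so no value has a replicate and no test was made. The 95% intervals cover the counting of reads in these libraries only.

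The libraries held 18788599 counts (chondrocytes) and 17563724 counts (dermal fibroblasts). All 12 chondrocyte markers were over 2-fold higher in chondrocytes, and *Col2a1* and *Matn1* had 0 counts in dermal fibroblasts. Of 12 dermal fibroblast markers, 10 were over 2-fold higher in dermal fibroblasts, among them *Col1a1* (39143 counts in chondrocytes, 322379 in dermal fibroblasts) and *Col3a1* (32090 and 273385 counts). The exceptions, picked out after their values were seen, were *Dlk1*, 4.45-fold higher in chondrocytes, and *Lum*, within 2-fold. *Actb* had 45139 and 50469 counts. Counts were scaled by TMM, which corrects the library total for the few genes that dominate it. Levels are given as scaled CPM, counts per 1e6 scaled counts, and levels of different genes are compared only per kilobase of the longest coding transcript. For a fold, counts under 3 were set to 3.

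Of the 10 genes, 9 exceeded 3 counts in at least 1 library. *Rspo3* and *Lgr4* passed 2-fold towards chondrocytes, *Rspo1*, *Lgr5*, *Lgr6* and *Axin2* passed it towards dermal fibroblasts, and *Rspo2* and *Znrf3* lay within 2-fold. The fold of *Rspo4* is a lower bound of 1.37 towards chondrocytes and was not placed on either side of 2-fold. For all 6 genes past 2-fold, the whole counting interval lay beyond 2-fold. Over the 15616 genes above the floor, 12.1% passed 2-fold towards chondrocytes and 15.8% towards dermal fibroblasts. The median log2 fold (chondrocytes over dermal fibroblasts) was 0.04 for the 9 genes, with *Rspo4* at its bound, and 0.00 for all 15616.

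**Figure D1:**
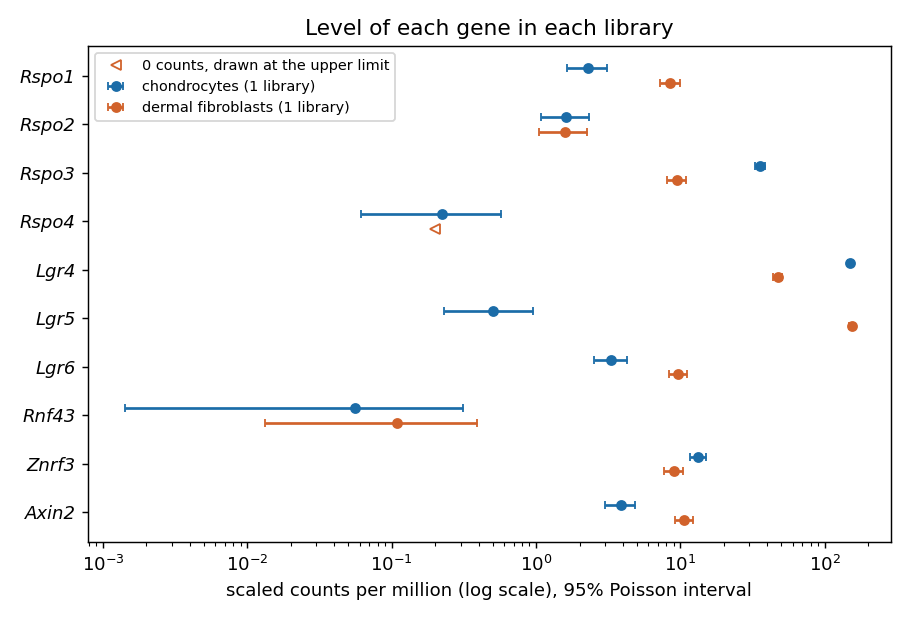
Level of each of the 10 genes in the chondrocyte library (blue) and the dermal fibroblast library (orange), in scaled CPM on a log axis. Bars are 95% Poisson intervals and the open triangle marks the upper limit of a count of 0. The levels of *Lgr5* lie farthest apart, at 0.502 and 154, while those of *Rspo2* coincide at 1.62 and 1.58.

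Among the ligands, *Rspo3* was the main R-spondin of chondrocytes, and *Rspo1* and *Rspo3* shared the counts of dermal fibroblasts. *Rspo3* (chromosome 10, 29453106 to 29535867 in GRCm38, minus strand), which is known for its roles in vascular development, had 635 counts in the chondrocyte library and 174 in that of dermal fibroblasts. These are 35.4 and 9.45 scaled CPM, a fold of 3.75 (interval 3.16 to 4.46) towards chondrocytes. *Rspo1* (chromosome 4, 124986401 to 125009102, plus strand), known as a regulator of ovary development, went the other way, with 41 counts in the chondrocyte library and 157 in that of dermal fibroblasts. Its level was higher in dermal fibroblasts by 3.73-fold (interval 2.63 to 5.39), at 8.53 against 2.29 scaled CPM. Among the 11162 genes with at least 100 counts in either library, the fold of *Rspo3* ranked 428 from the chondrocyte end and that of *Rspo1* ranked 632 from the dermal fibroblast end.

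The other two R-spondins had few reads. *Rspo2* (chromosome 15, 43020788 to 43171594, minus strand), which acts in limb development, had 29 counts in each library. Its fold of 1.03 has an interval from 0.592 to 1.78, so a difference between the libraries was not detectable at this depth. *Rspo4* (chromosome 2, 151842647 to 151874668, plus strand), whose human counterpart is required for nail formation, had 4 counts in the chondrocyte library and 0 in that of dermal fibroblasts. Set against the floor of 3 counts, it was at least 1.37-fold higher in chondrocytes, and the interval reached down to 0.678. The upper 95% Poisson limit of its count of 0 is 0.200 scaled CPM.

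The 4 R-spondins together took 709 counts in the chondrocyte library and 360 in that of dermal fibroblasts, which is 2.02-fold more in chondrocytes (interval 1.78 to 2.30). Summed per kilobase, their levels were 16.6 scaled CPM in chondrocytes and 9.07 in dermal fibroblasts, which is under 2-fold. *Rspo3* made up 89.6% of the R-spondin counts in chondrocytes (exact Clopper-Pearson interval 87.1 to 91.7) and 48.3% in dermal fibroblasts (43.1 to 53.6). *Rspo1* made up 5.78% (4.18 to 7.76) and 43.6% (38.4 to 48.9). These shares are taken within a library and do not depend on the scaling between libraries. Per kilobase, *Rspo1* and *Rspo3* stood at 4.65 and 3.95 scaled CPM in dermal fibroblasts, with overlapping intervals, against 1.25 and 14.8 in chondrocytes.

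**Figure D2:**
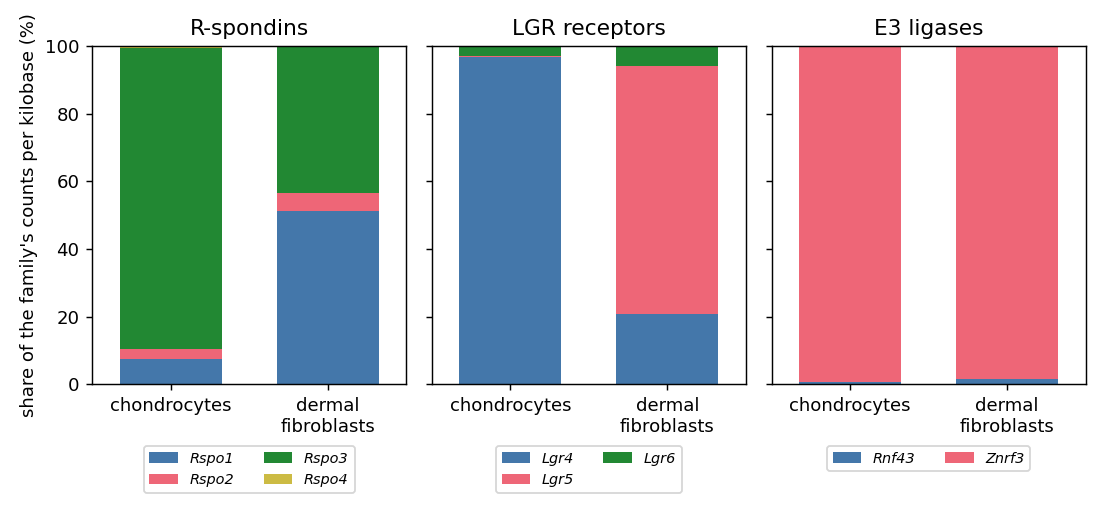
Share of each gene in the counts per kilobase of its family (percent), for the R-spondins, the LGR receptors and the E3 ligases, with 1 bar per library. *Rspo3* takes 89.0% of the R-spondin bar in chondrocytes and 43.5% in dermal fibroblasts, and the LGR bar passes from 96.7% *Lgr4* in chondrocytes to 73.1% *Lgr5* in dermal fibroblasts.

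Among the receptors, the prevailing LGR gene differed between the libraries. *Lgr4* (chromosome 2, 109917647 to 110014257, plus strand), the most broadly expressed LGR receptor, had 2687 counts in the chondrocyte library and 868 in that of dermal fibroblasts. It was 3.18-fold higher in chondrocytes (interval 2.94 to 3.44), at 149.9 against 47.1 scaled CPM. Its fold ranked 497 of the 11162 genes from the chondrocyte end. *Lgr5* (chromosome 10, 115450314 to 115587780, minus strand), a marker of stem cells in the hair follicle and the intestinal crypt, had 9 counts in the chondrocyte library and 2831 in that of dermal fibroblasts. Its level was higher in dermal fibroblasts by 306-fold (interval 161 to 670.5), the rank 5 fold of the 11162 genes from that end. *Lgr6* (chromosome 1, 134983300 to 135105374, minus strand), known from the upper hair follicle, had 59 counts in the chondrocyte library and 178 in that of dermal fibroblasts. It was higher in dermal fibroblasts by 2.94-fold (interval 2.18 to 4.01).

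Although single receptors differed by up to 306-fold, the summed counts of the 3 differed by 1.37-fold after scaling. There were 2755 LGR counts in chondrocytes and 3877 in dermal fibroblasts, higher in dermal fibroblasts with an interval from 1.30 to 1.44. This sum weights each receptor by its transcript length. Summed per kilobase of the longest coding transcript, the levels were 30.6 scaled CPM in chondrocytes and 44.6 in dermal fibroblasts. *Lgr4* took 97.5% of the LGR counts in chondrocytes (interval 96.9 to 98.1) and 22.4% in dermal fibroblasts (21.1 to 23.7). *Lgr5* took 0.327% (0.149 to 0.619) and 73.0% (71.6 to 74.4). *Lgr6* was the minor receptor of dermal fibroblasts at 4.59%, and in chondrocytes it took 2.14%. Per kilobase, *Lgr5* stood at 32.6 scaled CPM in dermal fibroblasts, 3.50 times *Lgr4*, and was the highest of the 10 genes there. In chondrocytes *Lgr4* was the highest of the 10 at 29.6, and *Lgr5* stood at 0.107. The *Lgr5* ratio and the sum per kilobase depend on the transcript length used. With all annotated exons, retained introns included, *Lgr5* is 10264 bp long in place of 4714 bp, and its share of LGR counts per kilobase in dermal fibroblasts was 58.7% in place of 73.1%. The sum was not recomputed with all exons, so its direction per kilobase is not settled here.

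**Figure D3:**
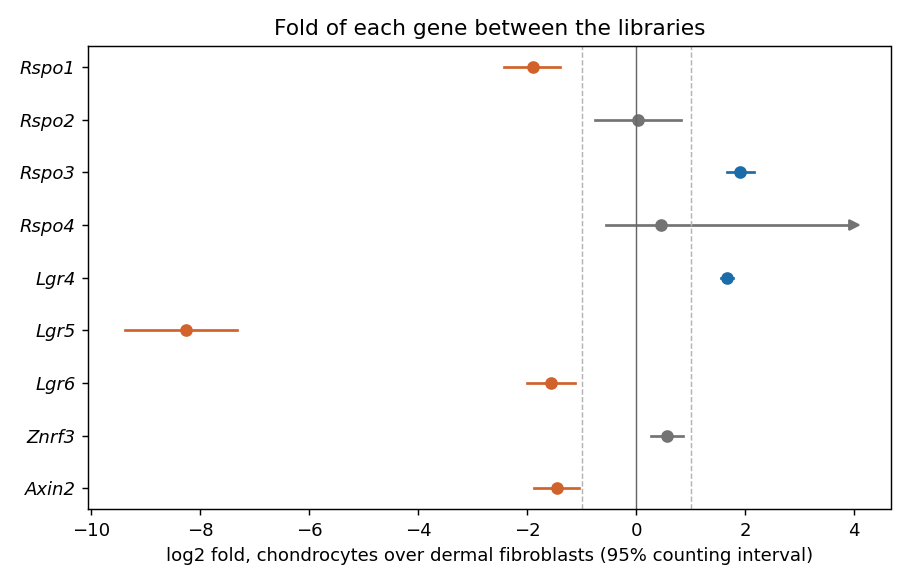
Log2 fold of the 9 genes above the floor, chondrocytes over dermal fibroblasts, with 95% counting intervals, and dashed lines at 2-fold. *Rspo3* and *Lgr4* lie to the right of the dashed lines and *Rspo1*, *Lgr5*, *Lgr6* and *Axin2* to the left, with *Lgr5* at -8.26; the arrow on *Rspo4* marks an interval without an upper end, and its point is a lower bound.

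Of the E3 ligases, which R-spondins inhibit, *Znrf3* (chromosome 11, 5276329 to 5444847, minus strand) alone had enough reads for a fold. Its counts were 238 in chondrocytes and 166 in dermal fibroblasts, for a fold of 1.47 (interval 1.20 to 1.81) that stays within 2-fold. *Rnf43* (chromosome 11, 87663087 to 87735539, plus strand) had 1 and 2 counts, at or under the floor in each library, and no fold is given. *Znrf3* thus held 99.6% of the ligase counts in chondrocytes and 98.8% in dermal fibroblasts. Per kilobase, the summed LGR level was 14.5 times the summed ligase level in chondrocytes and 30.7 times in dermal fibroblasts. Like the *Lgr5* share, these ratios depend on the transcript length used, and they were not recomputed with all exons.

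*Axin2* (chromosome 11, 108917828 to 108950783, plus strand) had 69 counts in the chondrocyte library and 194 in that of dermal fibroblasts. Its level of 10.5 scaled CPM in dermal fibroblasts was 2.74-fold that of chondrocytes (3.85), with an interval from 2.07 to 3.66. *Axin2* was thus higher in the library in which *Lgr5*, *Lgr6* and *Rspo1* were higher, and lower in the library in which *Rspo3* and *Lgr4* were higher. With 1 library of each cell type, every gene past 2-fold shares its side with some of these genes. The shared side therefore shows no link between *Axin2* and any of them. Ordered per kilobase, *Axin2* ranked 6 of the 10 genes in each library, next to *Lgr6*, and the intervals of these neighbours overlapped in both. Those of *Lgr4*, *Rspo3* and *Znrf3* in chondrocytes, the top 3 there, did not overlap with each other, and neither did those of *Lgr5* and *Lgr4* in dermal fibroblasts.

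Promoter sequences are shown for those genes past 2-fold that had an entry, to give the sequence context of their annotated starts. RefSeq entries (GRCm38.p6) were matched for 6 of the 10 genes. *Rspo2*, *Rspo3*, *Lgr5* and *Znrf3* were not among them. Shown are the 250 bases before the start of 3 genes higher in dermal fibroblasts, *Rspo1* (chr4:124986180-124986429, plus strand), *Lgr6* (chr1:135105277-135105526, minus strand) and *Axin2* (chr11:108920099-108920348, plus strand), and of *Lgr4* (chr2:109917397-109917646, plus strand), which was higher in chondrocytes. They are written along the gene's strand, and capitals mark CpG dinucleotides. The start is that of the promoter entry, so the *Axin2* window lies inside the gene span given above and the ends of the *Rspo1* and *Lgr6* windows overlap theirs.
Rspo1: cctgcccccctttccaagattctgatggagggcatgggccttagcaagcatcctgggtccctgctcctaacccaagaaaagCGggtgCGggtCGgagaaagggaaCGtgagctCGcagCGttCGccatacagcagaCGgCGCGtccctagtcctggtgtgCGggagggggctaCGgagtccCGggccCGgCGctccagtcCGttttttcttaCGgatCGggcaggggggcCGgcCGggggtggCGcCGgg
Lgr6: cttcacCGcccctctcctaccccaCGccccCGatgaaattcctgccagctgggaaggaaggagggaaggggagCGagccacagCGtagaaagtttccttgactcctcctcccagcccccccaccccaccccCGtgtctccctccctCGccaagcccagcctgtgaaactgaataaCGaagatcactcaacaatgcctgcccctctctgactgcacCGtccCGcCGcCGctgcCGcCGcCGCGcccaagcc
Axin2: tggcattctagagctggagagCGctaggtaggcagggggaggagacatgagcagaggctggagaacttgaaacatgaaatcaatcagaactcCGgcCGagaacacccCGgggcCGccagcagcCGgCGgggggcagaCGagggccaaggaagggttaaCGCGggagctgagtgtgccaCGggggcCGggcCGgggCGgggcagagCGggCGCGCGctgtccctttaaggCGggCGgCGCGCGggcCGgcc
Lgr4: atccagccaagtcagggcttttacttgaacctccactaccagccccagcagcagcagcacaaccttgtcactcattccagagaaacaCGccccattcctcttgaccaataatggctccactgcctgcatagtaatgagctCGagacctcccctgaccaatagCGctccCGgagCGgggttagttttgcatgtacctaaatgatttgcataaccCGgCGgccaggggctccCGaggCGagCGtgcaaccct

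The *Axin2* sequence held 24 CpG, that of *Rspo1* 22, that of *Lgr6* 16 and that of *Lgr4* 10. Of the genes not shown, *Rspo4* held 24 and the entries of *Rnf43* 8 and 2, against a median of 6 over 32851 promoters of this length. The *Axin2* sequence had more CpG than 88.0% of them and the *Lgr4* sequence more than 62.2%. The core of the TCF/LEF site, CTTTG on either strand, was found in 0 of the 7 promoter sequences of the 6 genes (*Rnf43* has a pair of entries) and in 48.6% of all promoters. The same letters lie within the SOX site, so the search does not separate them. The TATA box TATAAA, on either strand, was found in 0 of the 7 and in 12.4% of all promoters. These letters were searched in this window only.

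**Figure D4:**
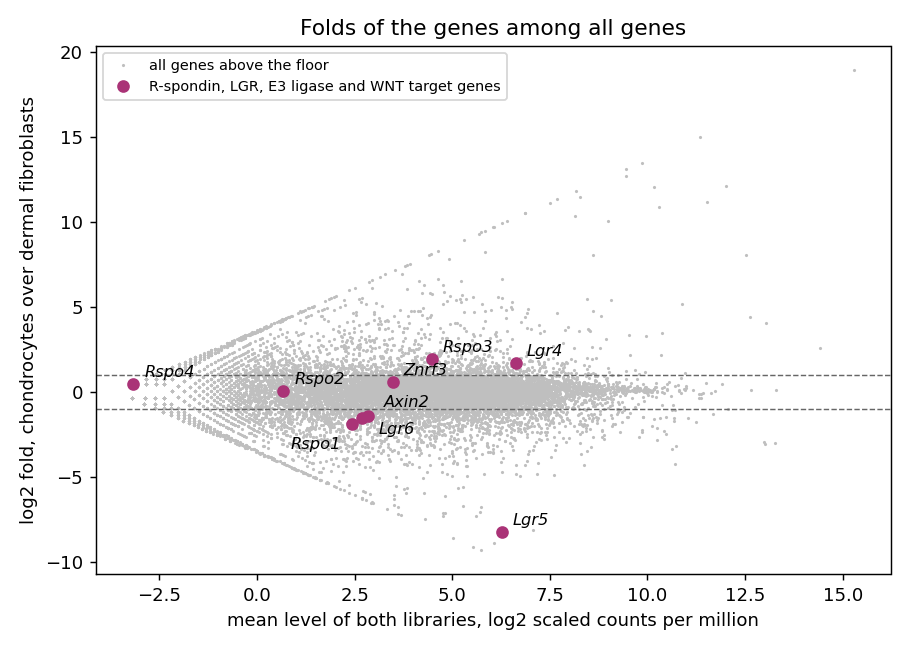
Log2 fold, chondrocytes over dermal fibroblasts, against the mean level of both libraries (log2 scaled CPM) for the 15616 genes above the floor (grey) and the 9 genes named (purple), with dashed lines at 2-fold. *Lgr5* lies near the lower edge of the cloud, and the other 8 genes lie between -1.90 and 1.91.

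Over these 2 libraries, the 4 genes nearest to *Lgr5* in their pair of log2 scaled counts were *Crabp1* (distance 0.72 on the log2 scale), *Lrrc15* (0.85), *Irx1* (0.87) and *Krt14* (1.07). *Crabp1*, a retinoic acid binding protein gene, had 11 counts in the chondrocyte library and 1786 in that of dermal fibroblasts. *Krt14*, a basal keratinocyte keratin gene, had 17 and 1939 counts. With a pair of libraries, such a neighbour shares a level in each and nothing more.

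Markers of other cell types moved with the comparison. The counts of each list stand beside 12.1% of all genes above the floor towards chondrocytes and 15.8% towards dermal fibroblasts. Of the 14 keratinocyte and hair follicle epithelium genes, 13 exceeded the floor and 8 of these passed 2-fold towards dermal fibroblasts, as *Lgr5* and *Lgr6* did. The summed level of the 14 genes was 408 scaled CPM in the dermal fibroblast library and 25.7 in the chondrocyte library. *Krt5* had 1693 counts in the former and 1 in the latter, and *Krt6a* had 0 counts in chondrocytes. The other 5 genes above the floor lay within 2-fold and were named after their values were seen. They were *Krt10* (72 counts in chondrocytes and 108 in dermal fibroblasts), *Itgb4* (251 and 443), *Trp63* (42 and 70), *Lhx2* (16 and 10) and *Msx2* (23 and 12). Of 12 dermal condensate and papilla genes, 4 were over 2-fold higher in chondrocytes and 5 in dermal fibroblasts, with summed levels of 576 and 980.1 scaled CPM. Among endothelial genes, 6 of 7 passed 2-fold towards dermal fibroblasts (summed 15.5 scaled CPM in chondrocytes and 53.5 in dermal fibroblasts, and in that order for the next lists), as did 6 of 9 Schwann cell and melanocyte genes, with 1 higher in chondrocytes (174 and 166, of which *S100b*, also known from cartilage, gave 148 and 4.73, and *Dct* was at 0 in chondrocytes), and 1 of 7 macrophage genes (107 and 169). Of 10 skeletal muscle genes, 6 passed 2-fold towards chondrocytes (1859 and 1304 scaled CPM). Perichondrium and osteoblast genes were higher in chondrocytes for 6 of 10, with the interval wholly beyond 2-fold for 4, and in dermal fibroblasts for 1. Their summed levels were 1243 and 2799 scaled CPM, of which *Postn* gave 298 and 2122, and *Bglap* had 6 and 0 counts. The part of these cells in the folds of *Lgr5*, *Lgr6*, *Rspo1*, *Rspo3*, *Lgr4* and *Axin2* was not tested. In such bulk RNA, a smaller number of expressing cells and a lower level per cell cannot be told apart.

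The remaining WNT pathway was described by lists that leave out the 10 genes. Of 98 pathway genes, 88 exceeded the floor, and 17 were over 2-fold higher in each direction, which is 19.3% each way, beside 12.1% (chondrocytes) and 15.8% (dermal fibroblasts) of all genes above the floor. The counts of the single lists stand beside the same shares of all genes. Of 19 WNT ligand genes, 14 exceeded the floor, with 4 higher in chondrocytes and 7 in dermal fibroblasts. The counting interval lay wholly beyond 2-fold for 3 and 4 of these. Many ligand genes had few reads, and 2 reached 100 counts in chondrocytes and 4 in dermal fibroblasts. *Wnt11*, a ligand best known for β-catenin-independent signaling, was 6.19-fold higher in chondrocytes (193 against 32 counts, interval 4.25 to 9.31). *Wnt16* was higher in dermal fibroblasts by 10.1-fold (354 against 34 counts, interval 7.12 to 14.9). *Wnt5a*, the ligand gene with the most counts, had 473 counts in the chondrocyte library and 829 in that of dermal fibroblasts. Both genes of WNT secretion passed 2-fold towards dermal fibroblasts. *Wls*, the WNT transporter gene, was 2.55-fold higher (interval 2.42 to 2.68), while *Porcn*, which encodes the acyltransferase that lipidates WNT proteins, was 2.11-fold higher with an interval from 1.70 to 2.62.

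The WNT receptor list holds Frizzled and LRP genes, whose proteins the ligases mark, and also *Ror1*, *Ror2* and *Ryk*. Of its 15 genes, 3 were higher in chondrocytes and 0 in dermal fibroblasts. The largest fold was that of the Frizzled gene *Fzd9* (648 against 29 counts, 23.0-fold, interval 15.8 to 34.5), and the most counts were those of *Ryk* (2572 counts in chondrocytes, 4130 in dermal fibroblasts). At the other end stood *Fzd5*, with 185 and 313 counts. Of 13 secreted antagonists, 11 exceeded the floor, with 4 higher in chondrocytes and 3 in dermal fibroblasts. *Frzb*, a secreted Frizzled-related protein gene of cartilage, was 9.50-fold higher in chondrocytes (638 against 69 counts, interval 7.40 to 12.4). *Dkk3* was higher in dermal fibroblasts by 19.4-fold (3461 against 174 counts, interval 16.6 to 22.7), and *Sfrp2*, the antagonist gene with the most counts, was 5.69-fold higher there (9692 against 1658 counts).

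The remaining lists hold genes that act inside the cell. Of 21 signal transducers, 2 were over 2-fold higher in chondrocytes and 0 in dermal fibroblasts. *Ctnnb1*, the β-catenin gene, had 16769 counts in the chondrocyte library and 14654 in that of dermal fibroblasts, a fold of 1.18. The folds at the ends among genes with at least 100 counts were 2.25 towards chondrocytes for *Ctnnbip1*, an inhibitor of β-catenin and TCF binding, and 1.92 towards dermal fibroblasts for *Dvl2*. Of 12 TCF/LEF factors and cofactors, 2 were higher in chondrocytes, with the corepressor gene *Tle1* first (3.85-fold, interval 3.34 to 4.46). *Lef1* alone was over 2-fold higher in dermal fibroblasts (2.44-fold, interval 1.93 to 3.10), while *Bcl9l*, with the most counts, had 2736 and 3580 counts.

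Of 22 other WNT target genes, 18 exceeded the floor and 10 of these lay within 2-fold. In dermal fibroblasts, as for *Axin2*, 5 were over 2-fold higher. *Nkd2*, a feedback inhibitor gene, had 164 counts in the chondrocyte library and 1150 in that of dermal fibroblasts (6.83-fold, interval 5.79 to 8.09). The others were *Apcdd1* (2.76-fold), *Lef1*, *Dact1* (2.48-fold) and *Twist1* (3.49-fold). In chondrocytes 3 were higher. *Bambi*, which encodes a decoy receptor for TGF-β family ligands, had 595 against 69 counts (8.86-fold, interval 6.89 to 11.5), and *Notum* (3.08-fold) and *Ascl2* (at least 6.85-fold against the floor, 20 against 2 counts, interval from 2.49) followed. *Apcdd1*, *Dact1*, *Twist1*, *Notum* and *Ascl2* were named after their values were seen. *Cd44*, with the most counts of this list, had 3356 and 4251 counts. The target genes thus passed 2-fold in each direction, and *Axin2* was on the side of 5 of the 8. The counting interval lay wholly beyond 2-fold for 3 genes higher in chondrocytes and 4 higher in dermal fibroblasts. Over all genes past 2-fold, 43.3% were higher in chondrocytes and the rest in dermal fibroblasts.

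**Figure D5:**
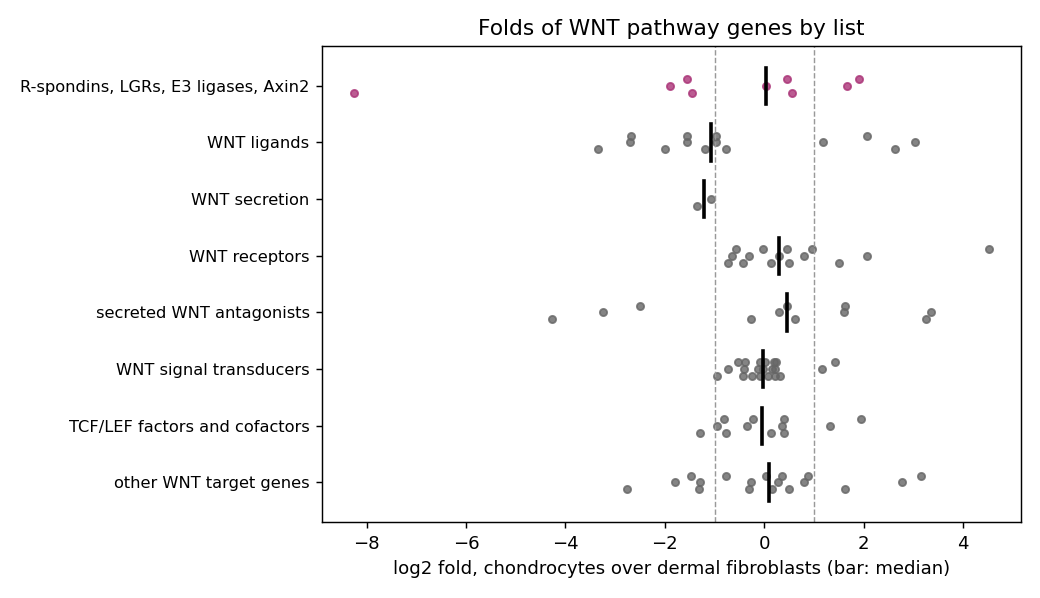
Log2 fold, chondrocytes over dermal fibroblasts, of each gene above the floor in the 7 WNT pathway lists (grey) and of the 9 genes of the R-spondin set (purple), with the median of each list as a bar and dashed lines at 2-fold. The signal transducers crowd around 0 with a median of -0.03, whereas the WNT ligands have a median of -1.07 and the R-spondin set reaches -8.26 (*Lgr5*). Ligand genes with few reads enter their median, among them *Wnt7a* (0 and 7 counts) and *Wnt9b* (0 and 6 counts), whose folds are bounds set by the floor.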

How the data were processed

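Total RNA of 1 chondrocyte and 1 dermal fibroblast culture was made into stranded mRNA libraries and sequenced as 75 bp single-end reads. Per the labels and the study's methods, the authors called bases with CASAVA 1.8.2 and mapped reads to mm10 with TopHat2 2.0.13, Bowtie2 2.2.3 and SAMtools 0.1.19. The table deposited by the authors holds raw counts, 1 whole number for each gene and library. The counting program, its annotation and its strand setting are not given in the sources used here. In 27 rows the symbol had become a date, and these rows stayed in the totals and the background but are not named.

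The 10 genes, the lists and the tests were chosen with earlier results of these data known. Counts were scaled with edgeR 4.0.16 TMM factors (0.954 and 1.05) in R 4.3.3, in place of factors from a supplementary table. Folds used a floor of 3 counts and a threshold of 2, with 95% Clopper-Pearson intervals (Python 3.11.15, scipy 1.17.1, numpy 2.4.6, pandas 2.3.3). Poisson intervals were exact. Intervals and floors cover counting error only, since reads carry no molecular identifiers. The code was tested on simulated data.

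Transcript lengths came from GENCODE vM1, an NCBIM37 annotation used for lengths only. The longest coding transcript was chosen after values were seen. Positions are those of RefSeq GRCm38.p6, the build of mm10. If strand was not used in counting, reads of genes in the same span cannot be told apart: *Lgr5* shares 12469 bp with *A930009A15Rik* (0 and 1 counts), *Rspo1* shares 807 bp with *Gm12930*, and *Rnf43* shares 5804 bp with *1110028F11Rik* (0 counts in each) and 100 bp with *Gm25968*.

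Besides the 10 genes, the text names for each pathway list the largest and smallest folds at 100 counts or more and the gene with the most counts, from the marker lists genes among those with the most counts and defining markers at 0, and the 5 genes nearest to *Lgr5*, of which 1 is not reported here. Alternatives were 5 other scalings (DESeq2 1.42.0 among them), floors of 1 and 10 counts, a pseudocount of 1, at least 10 counts, a fold over 4 and intervals wholly beyond 2.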

Additional observations from a re-analysis of the deposited data

How the results depend on the processing

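No paired analysis was possible because there was a single library of each cell type. The 9 folds were recomputed under up to 8 alternatives each, 71 values in all. None of the folds past 2-fold changed direction, and 2 values left the counting interval of the main fold, both for *Lgr4* (2.89 with total counts and 3.46 with *Actb*). *Rspo4*, with 4 counts against 0 and an interval without an upper end, went from 1.37 to 4.11 with a floor of 1 count and to 5.14 with a pseudocount of 1, so that 3 of the 10 genes in place of 2 passed 2-fold towards chondrocytes, and a floor of 10 counts gave no value for it. *Lgr5* stayed between 276-fold and 336-fold. Relative to TMM, total counts moved all log2 folds by -0.14 and *Actb* by 0.12. With a fold over 4, the 10 genes gave 0 in chondrocytes and 1 in dermal fibroblasts (*Lgr5*), all genes 713 and 929 in place of 1887 and 2468, and the pathway genes 9 and 8 in place of 17 and 17. With intervals wholly beyond 2, all genes gave 1041 and 1546. These thresholds remove genes by construction. A pseudocount of 1 gave 2876 genes higher in chondrocytes and 2846 in dermal fibroblasts, so the larger number changed sides. That setting also gives folds to genes with reads but at most 3 counts in each library, which the main setting leaves out. After scaling, 1 count against 0 then passes 2-fold towards chondrocytes, while 0 against 1 does not pass it towards dermal fibroblasts. The part of such genes in the change was not tested. Over the scalings the pair ranged from 1583 and 2847 (total counts) to 2139 and 2258 (*Actb*). The *Lgr4* share of LGR counts, 97.5% and 22.4%, became 96.7% and 20.9% per kilobase of the longest coding transcript, and 96.5% and 31.4% per kilobase of all exons, the latter chosen after seeing the data. Depth limits *Rspo2*, *Rspo4* and *Rnf43*, each with under 100 counts in both libraries.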

Other observations

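The dermal condensate and papilla list, whose cells exchange WNT signals with the follicle epithelium, was divided between the libraries. Its counts stand beside 12.1% of all genes above the floor towards chondrocytes and 15.8% towards dermal fibroblasts. In dermal fibroblasts 5 of 12 genes were over 2-fold higher. *Prdm1* had 11 counts in the chondrocyte library and 213 in that of dermal fibroblasts (18.9-fold), *Alx4* had 23 and 363 (15.4-fold), *Sox2* had 9 and 78 (8.44-fold), *Fgf10* had 140 and 558 (3.88-fold), and *Vcan* had 7048 and 15399 (2.13-fold). In chondrocytes 4 were over 2-fold higher. *Corin* had 38 and 5 counts (7.81-fold), *Alpl* 734 and 173 (4.36-fold), *Hhip* 253 and 81 (3.21-fold), and *Trps1* 1429 and 631 (2.33-fold). All except *Vcan* and *Trps1* were named after their values were seen.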
